A study of Mus musculus with 21 samples.

Results

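The transcriptome of unheated testes lacking Mageb4 was compared with that of unheated wild-type testes. The rule took the 6 unheated knockout and the 6 unheated wild-type libraries, 12 of the 21 libraries of the series, fitted alone, and kept genes whose mean over these 12 reached 1 TPM, a transcript abundance corrected for length and scaled to the same total in every library. The series was made to learn how loss of Mageb4 alters testis RNA with and without heat stress, and its title speaks of G3BP, a protein on which stress granules assemble. Each library came from whole testes of a C57BL6 male, with the genotype given as wild type or Mageb4 knockout and no treatment in these 2 groups. The other 9 libraries, 4 wild type and 5 knockout, were taken 72 h after heat shock and are used here only to look up genes found without heat. The sources used here do not give the knockout allele, the animals' ages or whether the genotypes were littermates.

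Mageb4 lies on the X chromosome and belongs to the MAGE family, whose members share a MAGE homology domain and often work as partners of RING E3 ubiquitin ligases. Many MAGE genes are active chiefly in germ cells and are switched on in tumours. The testis makes sperm in tubules in which germ cells pass from spermatogonia through meiosis to spermatids while supported by Sertoli cells, and Leydig cells between the tubules make testosterone. The libraries carried the RNA of such a tissue. The spermatid protamine gene Prm1 lay between 4828 and 7775 TPM, the germ cell helicase gene Ddx4 between 244 and 302 TPM, and the Leydig hormone gene Insl3 between 682 and 1388 TPM. The epididymal genes Lcn5 and Lcn8 were listed at 0 in all 12 libraries, and Crisp1, which is abundant in epididymis, reached at most 3.81 TPM. Other genes of the epididymis list were present, with Cst8 at 409 to 490 TPM, Sult1e1 at 15.3 to 31.8 TPM, Defb21 at 2.82 to 7.25 TPM and Rnase10 at 4.28 to 6.04 TPM.

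Within a group, libraries correlated at 0.995 to 0.997 across genes, and 18069 to 18547 genes per library reached 1 TPM. TPM keeps no read depth, so the counting error of low genes is unknown and precision is judged from the spread between animals. On the first principal component, which held 19.9% of the variance, wild-type libraries lay between -14.3 and -4.16 and 5 knockouts between 1.25 and 9.17, while knockout replicate 6 lay at 28.4. Knockout replicate 6 stood apart in the direction in which the genotypes differed, so the leading counts are also given without it.

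The targeted gene checked the labels. In Mageb4 the 6 wild-type libraries had a lowest value of 1.53, a median of 1.81 and a highest of 1.99 TPM, and the 6 knockouts 0.01, 0.04 and 0.11 TPM. Every knockout lay far below every wild type, with means of 1.80 ± 0.173 and 0.0467 ± 0.0361 TPM (SD, n = 6 each) and a ratio of 38.6. An exact 2-sided permutation test of log2(TPM + 1) gave p = 0.00216, the smallest that the 924 arrangements allow (0.00649 adjusted over the 3 genes tested in this way). Because the mean over the 12 libraries was 0.924 TPM, Mageb4 itself stood below the minimum. In a fit with no minimum it was lower by 1.42 ± 0.05 (SE) on the log2 scale, with an adjusted p of 4.28e-08.

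Mageb10-ps, an unprocessed pseudogene that the GENCODE M21 annotation places inside an intron of the longer Mageb4 transcript, had the largest fall among the genes called. Wild-type values had a lowest of 4.15, a median of 4.74 and a highest of 5.35 TPM, against 0.96, 1.06 and 1.16 TPM in the knockout. The groups did not overlap, and the mean was 4.44-fold lower in the knockout, a log2 difference of -1.47 ± 0.07 (SE, adjusted p = 6.35e-08). Mageb4 spans chrX:86250254-86305093 on the minus strand of mm10 with its coding sequence in 1 exon at chrX:86250754-86252421, and Mageb10-ps lies at chrX:86299922-86301328 on the same strand. Over 1403 aligned columns, beginning at the start codon, the pseudogene and the Mageb4 coding sequence were 97.5% identical, with 29 mismatches and 6 gap columns. The first 240 bases of each, read from mm10 on the minus strand at chrX:86252182-86252421 and chrX:86301089-86301328, are shown because they illustrate why reads of these genes are hard to separate; capitals mark the 2 positions at which they differ.
Mageb4: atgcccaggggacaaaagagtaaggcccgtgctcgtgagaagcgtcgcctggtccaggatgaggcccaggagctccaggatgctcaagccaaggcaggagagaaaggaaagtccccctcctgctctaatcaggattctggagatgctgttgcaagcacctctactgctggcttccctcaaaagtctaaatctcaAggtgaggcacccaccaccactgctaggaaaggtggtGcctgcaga
Mageb10-ps: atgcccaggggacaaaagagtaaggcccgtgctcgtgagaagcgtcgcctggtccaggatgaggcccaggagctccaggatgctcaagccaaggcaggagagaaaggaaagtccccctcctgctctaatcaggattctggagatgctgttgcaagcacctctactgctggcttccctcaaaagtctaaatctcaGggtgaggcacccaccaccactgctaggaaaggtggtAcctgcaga
The longest run without a difference was 908 bases, and 83.4% of the 50-base windows of Mageb10-ps also occur in a Mageb4 transcript. In the other direction, 54.4% of the 50-base windows of 1 Mageb4 transcript, 2403 bases long, also occur in Mageb10-ps. Reads from those stretches cannot be assigned to one or the other by their sequence, and the sources used here do not say how the authors assigned such reads. Of the 20 tested genes whose start lies within 5 Mb of Mageb4, the pseudogene was the 1 gene called. Over all genes tested 6.89% were called and 0.695% were called lower.

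**Figure D1:**
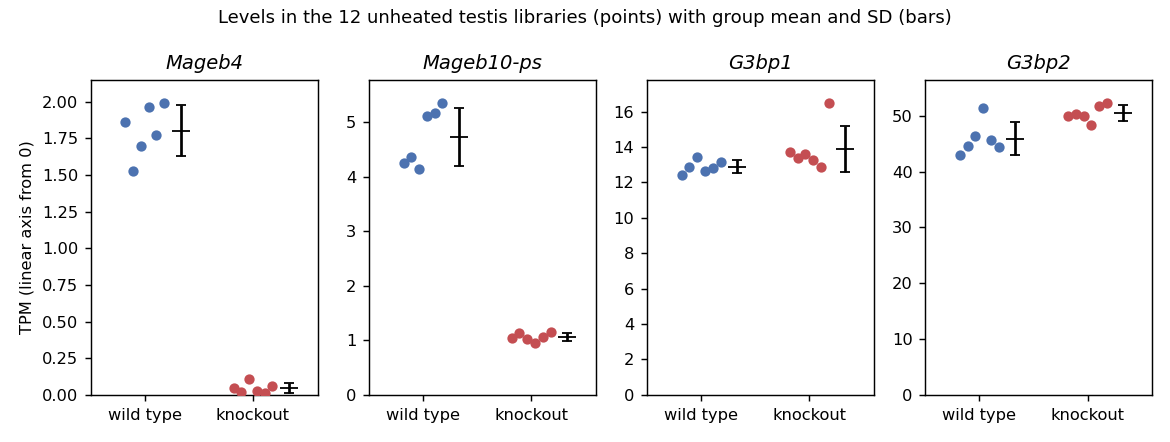
TPM of Mageb4, Mageb10-ps, G3bp1 and G3bp2 (vertical axes, linear from 0) in the 6 wild-type and 6 knockout unheated libraries (points), with group mean and SD (bars). Mageb4 and Mageb10-ps were separated by genotype, and the G3bp1 and G3bp2 groups overlapped. For G3bp1, knockout replicate 6 was highest at 16.5 TPM. Knockout replicates 1 and 3, at 13.7 and 13.6 TPM, also lay above the wild-type highest of 13.4 TPM.

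Without heat, loss of Mageb4 was accompanied by many small differences, most of them higher in the knockout. Of 18407 genes tested with limma on log2(TPM + 1), 1268 (6.89%) passed an adjusted p of 0.05, of which 1140 (6.19% of those tested) were higher and 128 (0.695%) lower in the knockout. At an unadjusted p of 0.05 the numbers were 3379 and 920. The median rise was 1.25-fold in TPM, 5th to 95th percentile 1.14 to 1.44, and the median fall was 1.18-fold. At least a 2-fold difference was reached by 2 genes that rose, Gm14399 and 4930504D19Rik, and by 1 that fell, Mageb10-ps; the former 2 were chosen for mention after their values were seen, and both were low, at 1.42 and 0.977 TPM in wild type. The groups did not overlap in 670 of the 1140 genes that rose and 77 of the 128 that fell, where over all genes tested 4.35% had every knockout above and 0.674% every knockout below. Without knockout replicate 6 the groups did not overlap in 555 of 699 rises and 63 of 81 falls, beside 4.46% and 0.826% of all genes tested.

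The split into rises and falls depended on the scaling. Higher genes made up 89.9% of the calls on the deposited TPM, 72.1% (694 of 962) after median-of-ratios scaling and 70.6% (561 of 795) after quantile normalization. Leaving out knockout replicate 6 gave 780 calls, 699 of them higher, and leaving out wild-type replicate 3 gave 543, the fewest of any single omission. The median log2 difference over all genes was 0.02, and it was -0.01 after either other scaling. In bulk tissue, fewer cells of a type and less RNA per cell cannot be told apart, and this holds for every result that follows.

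The rises that were largest by the naming rule (called, at least 5 TPM in the higher group, groups not overlapping) included 4 genes of lipid handling. Apoc1, an apolipoprotein of circulating lipoproteins, had a lowest, median and highest value of 52.5, 70.6 and 87.9 TPM in wild type and 93.4, 104 and 136 TPM in the knockout. The highest of these was knockout replicate 6, but all 6 knockouts exceeded all 6 wild types. Its mean was 1.54-fold higher, a log2 difference of 0.63 ± 0.12 (SE, adjusted p = 0.0111).

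Ces1d, a carboxylesterase that hydrolyses triacylglycerol, ran from 25.8 through a median of 29.2 to 34.1 TPM in wild type and from 40.3 through 41.7 to 51.8 TPM in the knockout. The ranges did not meet, and the mean rose 1.47-fold (0.54 ± 0.07, adjusted p = 0.00461). Fabp5, a cytosolic fatty acid carrier, lay at 7.93, 8.65 and 9.83 TPM (lowest, median, highest) in wild type and 11.7, 12.5 and 15.1 TPM in the knockout, a rise of 1.46-fold (0.50 ± 0.07, adjusted p = 0.00461). Lipg, a lipase of the endothelial type, rose 1.42-fold, from a mean of 8.90 to 12.6 TPM.

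The other rises named by the rule had varied roles. Fkbp10, an endoplasmic reticulum chaperone of collagen, rose 1.53-fold from 3.59 to 5.47 TPM. Tsku, a secreted leucine-rich repeat protein, rose 1.53-fold from 4.51 to 6.93 TPM. Its call was lost without wild-type replicate 3 (adjusted p = 0.0506). Ptgds, the enzyme that makes prostaglandin D2, rose 1.38-fold from a mean of 483 to 667 TPM and was the most abundant of the 12. Ly6e, a glycolipid-anchored surface protein, rose 1.39-fold from 83.3 to 116 TPM. Efnb1, an X-linked ephrin ligand, Rasd1, a small GTPase induced by glucocorticoid, Npepl1, an aminopeptidase-like protein, and Ltbr, the lymphotoxin beta receptor, rose between 1.42-fold and 1.44-fold.

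Among the falls, Nmnat3, which makes NAD in mitochondria, was the largest by the rule. Its wild-type values had a lowest of 44.5, a median of 49.9 and a highest of 51.8 TPM, and its knockout values 29.7, 34.1 and 41.1 TPM. The groups were separated, knockout replicate 6 was the lowest and the mean was 1.41-fold lower (-0.49 ± 0.06, adjusted p = 0.00461). Pom121l12, a gene related to a nuclear pore protein, had the smallest standard error of the 11 falls described, with 134, 138 and 141 TPM in wild type and 113, 115 and 121 TPM in the knockout. Its log2 difference was -0.24 ± 0.03 (adjusted p = 0.0022).

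Tdrkh, a Tudor protein that binds PIWI proteins and takes part in piRNA trimming, lay at 28.1, 29.5 and 34.4 TPM in wild type and 24.5, 25.8 and 26.7 TPM in the knockout (-0.25 ± 0.05, adjusted p = 0.0157). It was the only 1 of 20 tested genes of the piRNA pathway list to be called, where 6.89% of all genes tested were called and 0.695% called lower. Klhl32, a Kelch protein, fell from a mean of 7.29 to 5.33 TPM, Fam20a, a pseudokinase of the secretory pathway, from 55.4 to 45.6 TPM, and Ppp1r1c, an inhibitory subunit of protein phosphatase 1, from 32.1 to 26.5 TPM. Aurkc, a meiotic kinase, fell from 26.1 to 22.1 TPM, Lxn, a carboxypeptidase inhibitor, from 12.9 to 10.6 TPM, and Pnma2 from 5.05 to 3.92 TPM. Rbm11, an RNA-binding protein, fell from 7.01 to 5.77 TPM, and Tbc1d22bos, an opposite-strand transcript, from 9.29 to 7.69 TPM. Rbm11 and Tbc1d22bos lost their call when wild-type replicate 3 was left out, and over all single omissions the highest adjusted p was 0.0634 for Rbm11 and 0.0512 for Tbc1d22bos. Rbm11 was lost in 4 of the 12 omissions.

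**Figure D2:**
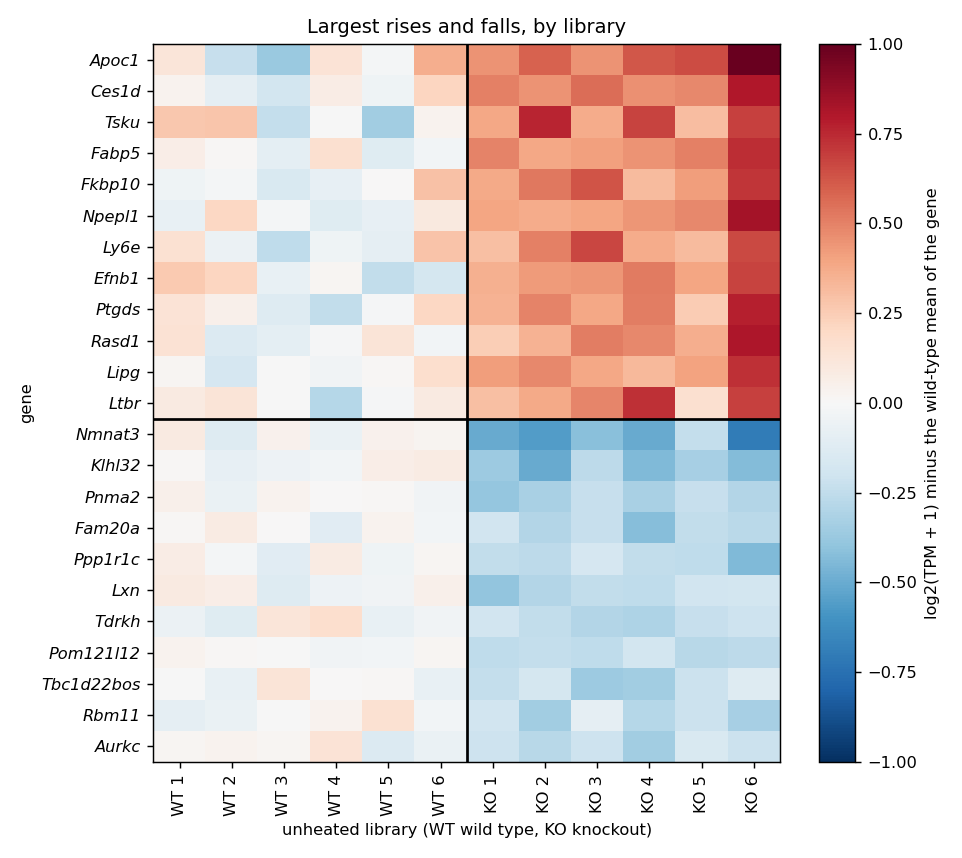
Log2(TPM + 1) of the 12 rises and 11 falls described (one gene per line) in each unheated library, minus the wild-type mean of the gene, shown by colour from -1 to 1. Knockout columns are red for the rises and blue for the falls in every library. Knockout replicate 6 is the darkest for Apoc1, Ces1d, Fabp5, Fkbp10, Npepl1, Efnb1, Ptgds, Rasd1 and Lipg. Among the falls it is the darkest for Nmnat3 and Ppp1r1c.

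Sertoli cell genes rose, with the largest share of members called among the cell type lists. Of 28 tested markers 19 (67.9%) were higher and 0 lower, beside 6.19% and 0.695% of all genes tested. All 28 had a positive log2 difference, beside 10539 of 18407 genes tested, and the list median was 0.33 against 0.02 over all genes. The list was written from textbook knowledge with earlier results of these data known, so its direction is not independent evidence. Summed over the list, wild-type libraries held 3040 to 3506 TPM and knockouts 3835 to 4996 TPM, with no overlap and with knockout replicate 6 highest. Without that library 18 were higher, and without wild-type replicate 3 there were 14. In a fit of all 21 libraries 6 were higher.

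Cst12, a cystatin expressed in Sertoli cells, had 201, 225 and 250 TPM in wild type (lowest, median, highest) and 268, 294 and 336 TPM in the knockout, a 1.30-fold rise (0.38 ± 0.06, adjusted p = 0.00712). Defb19, a defensin of the same cells, had 606, 669 and 736 TPM and then 753, 818 and 965 TPM, a 1.26-fold rise (0.33 ± 0.06, adjusted p = 0.0101). Neither gene showed any overlap between genotypes. Fabp3, a fatty acid carrier, rose 1.37-fold from a mean of 180 to 246 TPM and Aard 1.26-fold from 102 to 129 TPM. Among its transcription factor genes, Nr5a1, which Leydig cells also express, rose 1.33-fold from 17.9 to 23.8 TPM, and Gata4 was called at a log2 difference of 0.34. Sox9, at 0.21, was not called.

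Genes of the blood-testis barrier, the ring of junctions between Sertoli cells, were higher in 5 of 15 (33.3%, beside 6.19% of all genes tested). Gja1, the gap junction protein connexin 43, rose 1.30-fold from 27.4 to 35.5 TPM, and Cldn11, a tight junction claudin, 1.25-fold from 51.4 to 64.1 TPM. Cldn11 was not called without wild-type replicate 3 (adjusted p = 0.0541). The list held 1 call without that library, 2 without wild-type replicate 2 and 3 without wild-type replicate 5 or knockout replicate 1, 3, 5 or 6. In retinoic acid metabolism, 3 of 16 (18.8%) rose. Among them were the retinaldehyde dehydrogenase gene Aldh1a1, from 195 to 253 TPM (0.38 ± 0.05, adjusted p = 0.00461), and Cyp26b1, which breaks retinoic acid down, from 12.4 to 15.9 TPM.

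Leydig cell genes had a median of 0.33, and 6 of 17 (35.3%, beside 6.19% of all genes tested) were higher with 0 lower. Without knockout replicate 6 there were 5 higher. Hsd3b1 and Hsd3b6, which encode steroid dehydrogenases of androgen synthesis, rose from 57.2 to 79.1 and from 112 to 148 TPM, and Hsd17b3, which completes testosterone synthesis, was called as well (0.34). Summed TPM over the list was 1756 to 2398 in wild type and 2256 to 3216 in the knockout, so the groups overlapped. Star, at 0.50, and Cyp17a1, at 0.46, had larger log2 differences than the median and were not called. In cholesterol biosynthesis 4 of 19 (21.1%) rose, including the X-linked sterol dehydrogenase gene Nsdhl, 1.32-fold from 7.32 to 9.63 TPM. That count dropped to 1 without wild-type replicate 2, 3 or 5.

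The list of lipid carriers, carboxylesterases and NAD synthesis, which holds Apoc1, Ces1d, Fabp5 and Nmnat3 named above, had 9 higher (52.9%, beside 6.19% of all genes tested), 1 lower and a median of 0.40 over 17 genes. It was assembled with these genes already known to move. The count of rises was 5 without knockout replicate 6 and 5 without wild-type replicate 2. In the extracellular matrix list 4 of 20 (20%) rose, with Sparc, a matrix glycoprotein, from 242 to 300 TPM and Timp2, an inhibitor of metalloproteinases, from 99.7 to 123 TPM (0.30 ± 0.04, adjusted p = 0.00488). The matrix count was 2 without wild-type replicate 1, 2, 3 or 5 or knockout replicate 2 or 3.

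Lists for other cells held few calls. The share higher was 11.8% for leukocyte and 16.7% for peritubular and smooth muscle genes, beside 6.19% of all genes tested. A positive difference was found in 10539 of all 18407 genes tested. Of 17 leukocyte genes 16 had a positive difference, with a median of 0.31, and 2 rose, Csf1r, the receptor of macrophage growth factors, from 4.40 to 5.71 TPM and Fcer1g from 5.72 to 7.90 TPM. The leukocyte sums overlapped, at 907 to 979 TPM in wild type and 916 to 1127 TPM in the knockout, and without wild-type replicate 4 the count was 5. Of 12 peritubular and smooth muscle genes 11 were positive, with a median of 0.15, and 2 rose, Myl9 and Ptch1, and of 10 endothelial and 5 red blood cell genes none was called. All 5 red blood cell genes had a positive difference, with a median of 0.34 and sums of 91.8 to 199 TPM in wild type and 103 to 314 TPM in the knockout.

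**Figure D3:**
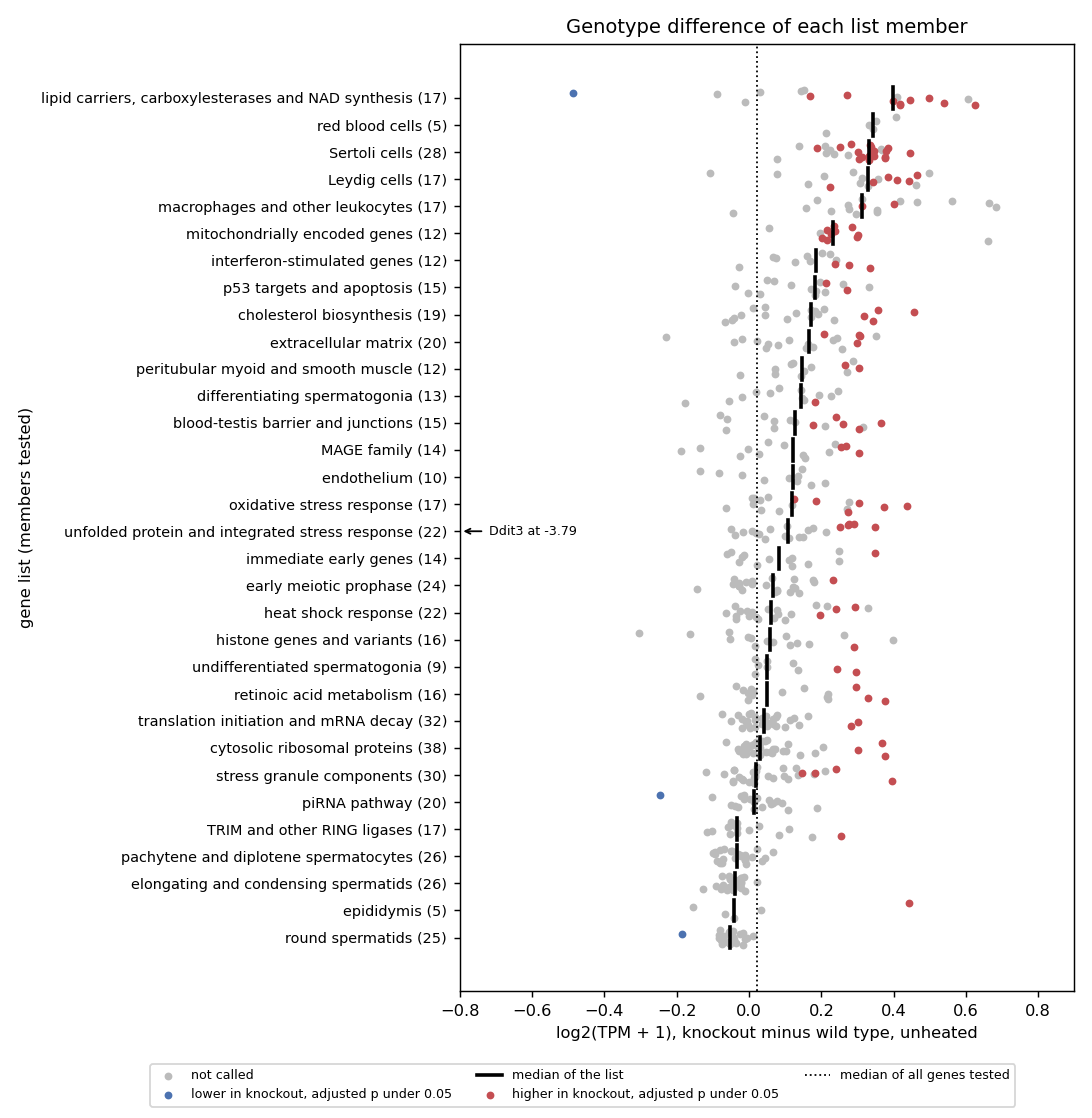
Difference of log2(TPM + 1) between unheated knockout and wild type (horizontal axis) for every tested member of 32 gene lists (vertical axis), coloured by call, with the list median (black bar) and the median over all genes (dotted line). Sertoli and Leydig medians lie at 0.33, spermatid and spermatocyte lists lie slightly below 0, and 1 Ddit3 entry at -3.79 is off the axis.

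Spermatocyte and spermatid genes held few calls, and most had a negative difference, while the list medians were small. Over all 18407 genes tested, 10539 were positive, with a median of 0.02, and 6.19% were called higher and 0.695% lower. Pachytene spermatocyte genes had 0 of 26 called and 5 of 26 positive, with a median of -0.03. Round spermatid genes had a median of -0.05, with 1 of 25 called and 1 positive, and elongating spermatid genes -0.04, with 0 of 26 called and 1 positive. The called gene was Tekt1, which encodes a tektin of the sperm flagellum. It lay at 367, 380 and 384 TPM (lowest, median, highest) in wild type and 314, 331 and 346 TPM in the knockout, without overlap (-0.19 ± 0.03, adjusted p = 0.0057). Oaz3, a spermatid antizyme, had 3024 ± 46.1 and 2878 ± 66.0 TPM (SD, n = 6 each) and did not pass (adjusted p = 0.053).

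Spermatogonial genes showed few calls, but most had a positive difference. Of all 18407 genes tested 10539 were positive too, with a median of 0.02. All 9 tested genes of undifferentiated spermatogonia were positive, with a median of 0.05. In differentiating spermatogonia 10 of 13 were positive, with a median of 0.15. Of the 9 undifferentiated genes 2 rose (22.2%, beside 6.19% of all genes tested). They were Etv5, a transcription factor needed for stem cell maintenance, from 9.25 to 11.6 TPM and Gfra1, the GDNF co-receptor, 1.30-fold to a mean of 2.08 TPM. Gfra1 lost its call under both other scalings and in 7 of 12 single omissions. The single calls in the differentiating spermatogonia list (Dazl, adjusted p = 0.0475) and the early prophase list (Tex11, 0.0487) were each lost in 11 of 12 single omissions. The sum of round spermatid genes was 7285 to 7795 TPM in wild type and 6964 to 7444 TPM in the knockout, overlapping, with knockout replicate 6 lowest. That library was thus highest for Sertoli genes and lowest for round spermatid genes, and the part of this in the results was not tested beyond the counts given without it.

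For the G3BP genes, the subject of the series title, mean RNA was above wild type in the unheated knockout, and neither gene was called in the fit over all genes. G3bp1, which nucleates stress granules, had 12.4, 12.9 and 13.4 TPM in wild type (lowest, median, highest) and 12.9, 13.5 and 16.5 TPM in the knockout. The groups overlapped, and the highest value was knockout replicate 6. An exact permutation test gave p = 0.0281 (0.0281 adjusted over 3 genes) for a difference of 0.10, and the fit over all genes gave an adjusted p of 0.313. Without that library the difference was 0.05 and the adjusted exact p 0.0606. It was 0.0613 (adjusted exact p = 0.214) after median-of-ratios scaling and 0.0398 (adjusted exact p = 0.446) after quantile normalization, so the exact test passed on the deposited TPM and under neither other scaling.

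G3bp2, its paralogue, had 43.0, 45.1 and 51.4 TPM in wild type and 48.3, 50.2 and 52.3 TPM in the knockout. A single wild-type library reached into the knockout range, and the means differed 1.10-fold (0.14 ± 0.04, exact p = 0.0108, adjusted 0.0162), but not past the threshold in the fit over all genes (adjusted p = 0.0668). These are RNA levels, and translation was not measured in these libraries.

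Of 30 stress granule genes 4 rose (13.3%, beside 6.19% of all genes tested). Ddx3x, an X-linked RNA helicase, rose 1.34-fold from a mean of 15.7 TPM (0.40 ± 0.08, adjusted p = 0.0139). Ythdf1, a reader of methylated RNA, rose from 16.9 to 20.2 TPM, Tardbp, which encodes TDP-43, from 174 to 192 TPM, and Stau1 from 31.2 to 35.6 TPM. Stau1 lost its call under both other scalings and in 9 of 12 single omissions. The list median was 0.02, equal to that of all genes, and it turned negative (-0.02) under median-of-ratios scaling. The count was 3 without knockout replicate 6 and 2 without wild-type replicate 2 or 5. Heat shock genes showed 3 of 22 (13.6%) higher, the chaperone genes Hspa8 (185 to 219 TPM), Hspd1 (30.2 to 37.3 TPM) and Hsp90ab1 (223 to 256 TPM). These 3 encode constitutively expressed chaperones.

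Of other stress lists, the oxidative stress response had 6 of 17 higher (35.3%, beside 6.19% of all genes tested), and 4 without knockout replicate 6. Nfe2l2, which encodes the transcription factor NRF2, rose from 13.1 to 16.4 TPM (0.30 ± 0.05, adjusted p = 0.00777), the glutathione transferase gene Gsta4 from 56.4 to 73.3 TPM and catalase, Cat, from 7.11 to 8.82 TPM. The unfolded protein and integrated stress response list had 5 of 22 entries (22.7%) higher, led by Xbp1, from 9.06 to 11.3 TPM (0.29 ± 0.05, adjusted p = 0.00985). Its other calls included Psat1 and Phgdh, enzymes of serine synthesis. Its first Ddit3 entry lay at 78.94 to 96.6 TPM in wild type and 83.05 to 92.27 TPM in the knockout. Its second Ddit3 entry was listed at 0 in 5 of 12 libraries, wild-type replicate 5 and knockout replicates 1, 3, 4 and 5. That entry lay at 37.71 to 137 TPM in the other wild types, and at 1.91 and 70.78 TPM in knockout replicates 2 and 6. No entry of the list was called lower. In that list 2 rose without wild-type replicate 2 or 5, and 3 without wild-type replicate 1 or 3 or knockout replicate 2, 3 or 4. The p53 list had 2 of 15 (13.3%) higher and the interferon-stimulated list 3 of 12 (25%). Both held 0 without wild-type replicate 2 or 3 or knockout replicate 3 or 6. The p53 count was 0 or 1 in every single omission other than those of wild-type replicate 4 and knockout replicate 5, and the interferon count was also 0 or 1 without wild-type replicate 1 or 5 or knockout replicate 4 or 5.

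The remaining lists had few calls. Translation initiation and mRNA decay had 2 of 32 higher (6.25%, beside 6.19% of all genes tested), Cnot8, a deadenylase subunit, and the X-linked Eif2s3x, an initiation factor subunit. That list had 0 or 1 without wild-type replicate 1, 2, 3 or 5 or knockout replicate 1, 2, 5 or 6. Histone genes had 1 of 16 (6.25%) higher, the linker histone gene H1f0, and immediate early genes 1 of 14 (7.14%), the transcription factor gene Klf6. Both counts were 0 without wild-type replicate 2, 3 or 5 or knockout replicate 3, H1f0 also without wild-type replicate 6 or knockout replicate 2, and Klf6 also without knockout replicate 1. Of 5 tested epididymal genes, the estrogen sulfotransferase gene Sult1e1, which Leydig cells also express, rose 1.36-fold.

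Other members of the MAGE family were described by their own values. Of 14 tested 3 rose (21.4%, beside 6.19% of all genes tested), all on the X chromosome. They were Mageb16, 1.25-fold (0.30 ± 0.07, adjusted p = 0.0175), Maged1 from 93.2 to 112 TPM and Maged2 from 25.1 to 30.3 TPM. Mageb16 values were 13.4, 14.1 and 16.4 TPM in wild type and 16.3, 17.1 and 21.4 TPM in the knockout, with a slight overlap. Maged2 was not called under either other scaling, and the family held 2 calls without knockout replicate 6. Mageb2 (-0.19) and Mageb5 (-0.14) had negative differences that did not pass. Among the TRIM and other RING ligases, the class with which MAGE proteins pair, 1 of 17 (5.88%) rose, the X-linked Pja1, from 60.6 to 72.5 TPM.

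By chromosome, the share of genes that rose was larger on the X. There, 113 of 792 tested genes (14.3%) were higher, against 1011 of 17189 (5.88%) on the autosomes and 2 of 194 on the Y. Without knockout replicate 6 the shares were 9.45% (75 of 794) and 3.57%, after median-of-ratios scaling 10.6% and 3.50%, and after quantile normalization 7.32% and 2.87%. Falls did not show this, with 4 on the X (0.505%) and 0.71% on the autosomes. The autosomes ranged from 3.62% higher on chromosome 5 to 9.03% on chromosome 6. Cytosolic ribosomal protein genes were higher in 3 of 38 (7.89%), beside 6.19% of all genes. The 3 called are X-linked: Rpl10 from 93.7 to 121 TPM (0.38 ± 0.06, adjusted p = 0.00676), Rps4x from 44.4 to 57.5 TPM and Rpl39 from 37.3 to 46.0 TPM. Rpl39 lost its call in 5 of 12 single omissions, among them that of knockout replicate 6. The part of cell type in the X-linked rises was not tested.

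**Figure D4:**
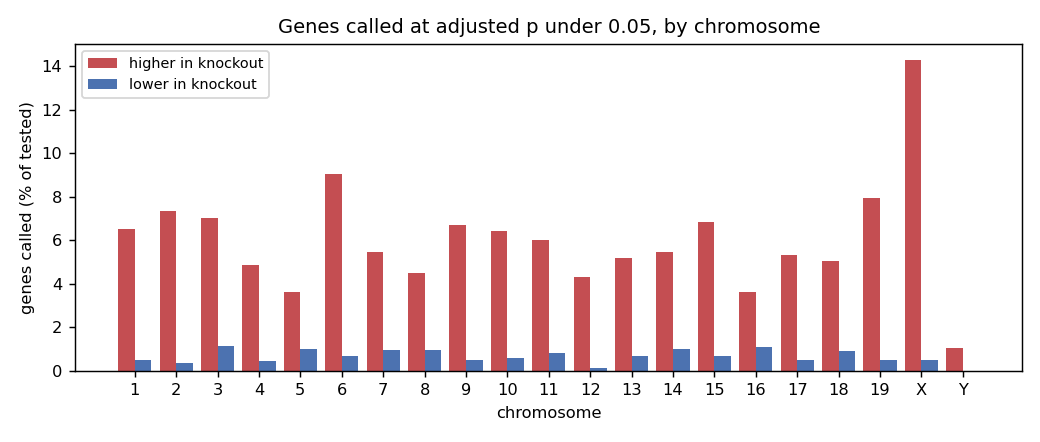
Percentage of tested genes (vertical axis, from 0) that were higher or lower in the unheated knockout, for each nuclear chromosome (horizontal axis). The X stands at 14.3% higher, above chromosome 6 at 9.03%, while falls reach at most 1.13%, on chromosome 3.

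RNA encoded by the mitochondrial genome was higher in the knockout. Of 12 tested genes 9 rose (75%, beside 6.19% of all genes tested). All 12 were positive, beside 10539 of all 18407 genes tested, and the median was 0.23. The share of total TPM held by mitochondrial genes was 0.719% to 0.874% in wild type and 0.904% to 0.987% in the knockout, without overlap, and mt-Atp8 was listed at 0 in all 12 libraries. For mt-Nd1, a subunit of respiratory complex I, wild type had 1006, 1078 and 1201 TPM (lowest, median, highest) and the knockout 1280, 1343 and 1419 TPM (0.30 ± 0.04, adjusted p = 0.00628). Without knockout replicate 6 the list held 6 rises, and in a fit of all 21 libraries it held none. Mitochondrial and Sertoli sums were thus both higher in all 6 knockouts than in any wild type, and the part of the one in the other was not tested.

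The genotypes were also compared after heat in 9 other animals, with no library in common. There, 80.5% of 18456 tested genes passed, 29.6% higher and 51% lower in the knockout. Of the unheated rises that could be tested, 1029 of 1134 (90.7%) were lower and 48 higher in the heated knockout. Of the unheated falls, 85 of 111 (76.6%) were higher and 8 lower. With rises and falls called without knockout replicate 6, 628 of 695 rises were lower and 52 of 72 falls higher. After median-of-ratios scaling 588 of 690 rises were lower and 204 of 240 falls higher, with 37.2% of all genes lower and 36.2% higher. In the direct test of the genotype effects between conditions, 80.7% of 18977 genes differed. The knockout minus wild-type difference was shifted up after heat, relative to that without heat, in 33.2% and shifted down in 47.6%.

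Counts in the cell type lists after heat differed between lists. Over all genes tested after heat, 51% were lower and 29.6% higher in the knockout. Of the 28 Sertoli genes 27 were lower in the heated knockout (median -0.92) and 0 higher, while 24 of 25 round spermatid genes were higher (median 2.44). Leydig cell genes were lower in 11 of 17 and red blood cell genes in 1 of 5. Fabp5 had a genotype difference of -1.32 after heat against 0.50 without it, and Pom121l12 2.15 against -0.24. G3bp1 and G3bp2 were lower in the heated knockout, by 0.63 and 0.90. In Mageb4, heated wild types held 7.82 to 8.26 TPM and heated knockouts 0.09 to 0.15 TPM. Cell make-up and RNA per cell cannot be told apart in either condition.

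The 8 genes lower in the knockout in both conditions were Pla2g12a, Nmnat3, Ppp1r3f, Tdrkh, Lxn, St6galnac3, Morrbid and Mageb10-ps. Nmnat3 had means of 37.4 ± 2.68 TPM (n = 4) in heated wild type and 27.0 ± 2.50 TPM (n = 5) in the heated knockout, a 1.38-fold fall beside 1.41-fold without heat, and the genotype effects differed by 0.03 ± 0.11 (adjusted p = 0.796). Tdrkh fell 1.26-fold after heat and 1.20-fold without it, and its genotype effects differed by -0.09 ± 0.12 (adjusted p = 0.507). A p above the threshold does not show that the effects were equal. Mageb10-ps differed more after heat, with 21.2 and 1.67 TPM. Apart from Nmnat3, Tdrkh, Lxn and Mageb10-ps, these genes were selected for mention after their values were seen.

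**Figure D5:**
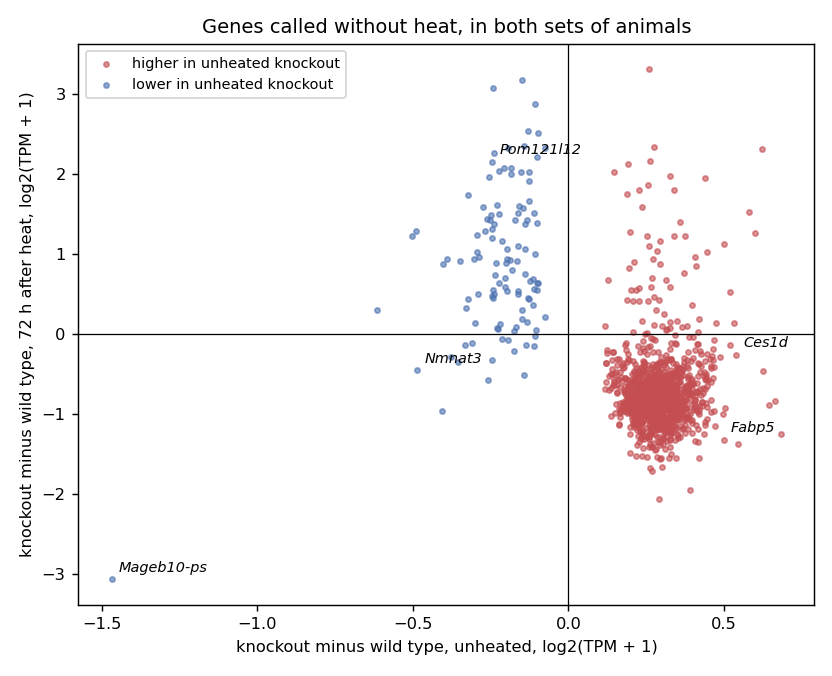
Genotype difference in log2(TPM + 1) without heat (horizontal axis) and 72 h after heat (vertical axis) for genes called without heat and tested in both (points, coloured by their unheated direction). Most genes higher without heat lie below 0 on the vertical axis and most genes lower without heat lie above it, while Nmnat3 and Mageb10-ps are below 0 on both.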

How the data were processed

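RNA was extracted with Trizol from whole testes and sequenced on an Illumina HiSeq after TruSeq stranded mRNA preparation, per the labels' protocols. Per the submitters' processing notes, the tools included STAR with mm10. Nothing in the sources used here gives the abundance tool, the annotation or the use of strand in counting. The authors deposited TPM, a unit that keeps no depth. The replicates are biological, per the labels, and were taken as 1 animal each. There were 55573 entries for 55453 symbols, and 98.1% of the symbols were placed with GENCODE M21.

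Values were transformed to log2(TPM + 1), a pseudocount that understates changes of low genes, and genes averaging 1 TPM or more in the 12 libraries entered limma 3.58.1 in R 4.3.3 with a mean-variance trend. Adjustment was by Benjamini and Hochberg across every gene tested, and a gene was called at an adjusted p under 0.05. Fold changes are ratios of mean TPM; errors of TPM are SD and errors of log2 differences are moderated SE. Mageb4, G3bp1 and G3bp2 were also tested by exact 2-sided permutation. The 9 heated libraries were fitted alone, and all 21 for the difference of genotype effects. The code was tested on simulated data.

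The members and the 32 gene lists were chosen with earlier results of these data known. Named genes were Mageb4, G3bp1 and G3bp2, the 12 largest rises and 12 largest falls among called, non-overlapping genes of at least 5 TPM (no predicted genes or clone names), up to 4 called members of each list by largest moderated t, or the top member where none was called, and called genes within 5 Mb of Mageb4. For 1 gene that the rule picked, the result is not reported here. Further members given with their values only were chosen after they were seen. Lists were described by counts and medians, with no set test. Alternatives covered the pseudocount, the minimum, scaling, the replicate block, library weights, all 21 libraries in 1 fit and omission of each library.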

Additional observations from a re-analysis of the deposited data

Results flagged for a closer look

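Knockout replicate 6 lay far from the other 5 knockouts in 11 of the 16 outlying values found among 118 groups of 6 tested. Chance gives about 1 in 20 for a single group. The groups came from the same libraries, and many genes were picked for their differences in these libraries. The chance rate is therefore no measure for the count. Its values in TPM were 16.48 for G3bp1, 136.17 for Apoc1, 51.79 for Ces1d, 15.15 for Fabp5, 23.95 for Npepl1 and 15.39 for Lipg, each the highest of its group, and 23.33 for Ppp1r1c, the lowest. Summed over lists it held 217.4 TPM for the MAGE family, 937.9 for the unfolded protein and integrated stress response and 4996 for Sertoli cells, each the highest, and 6964 for round spermatids, the lowest. In the unfolded protein sum, the second Ddit3 entry gave 70.78 TPM in this library and 0 or 1.91 in the other 5 knockouts. Wild-type replicate 4 stood apart in 4 values, with 8.16 TPM for Ltbr and sums of 5671 for heat shock, 3229 for the piRNA pathway and 574.8 for peritubular genes. Wild-type replicate 6 stood apart for Fkbp10 at 4.59 TPM. Whether these libraries differ in cell make-up or handling was not tested.

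The genotype effect differed between heated and unheated animals for 23 of the 27 genes examined, by limma's test of the difference over all 21 libraries, beside 80.7% of all genes tested. The heated minus the unheated effect in log2(TPM + 1) was -0.7215 for G3bp1, -1.039 for G3bp2, -1.087 for Apoc1, -0.8038 for Ces1d, -1.824 for Fabp5 and -1.499 for Fkbp10. Further rises gave -0.7775 for Npepl1, -1.435 for Ly6e, -0.5517 for Efnb1, -0.7991 for Ptgds, -1.443 for Rasd1, -1.068 for Lipg and -0.8836 for Ltbr. Among the falls the difference was 1.321 for Klhl32, 0.431 for Pnma2, 1.861 for Fam20a, 1.554 for Ppp1r1c, 2.396 for Pom121l12, 1.438 for Tbc1d22bos, 0.687 for Rbm11 and 1.115 for Aurkc. It was negative for Lxn, at -0.3215, and for Mageb10-ps, at -1.603.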

How the results depend on the processing

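The unheated count of 1268 genes (1140 higher, 128 lower) was 582 (517 and 65) with no minimum, 795 (561 and 234) after quantile normalization and 279 (261 and 18) in 1 fit of all 21 libraries. After median-of-ratios scaling it was 962, of which 694 were higher and 268 lower, and with library weights 212 were lower. Deviations of knockout and wild-type libraries with the same replicate number correlated at -0.224 to 0.150. Of the 6 knockouts 1 correlated best with its own number. These values show no clear pairing by number but cannot exclude one. A replicate block gave 626 (592 and 34). Leaving out 1 library gave 543 to 1560 genes, 498 to 1395 higher and 45 to 165 lower. The total moved by over 1.5 times without wild-type replicate 1 (830), 2 (664), 3 (543) or 5 (615), or without knockout replicate 2 (838), 3 (835) or 6 (780). Median-of-ratios scaling without knockout replicate 6, an alternative chosen after seeing the data, gave 492, of which 369 were higher. The G3bp1 difference of 0.10 was 0.0613 (adjusted exact p = 0.214) after median-of-ratios scaling, 0.0398 (adjusted exact p = 0.446) after quantile normalization and 0.0486 to 0.116 over single omissions, and it missed the threshold without wild-type replicate 1, 2, 4 or 5 or knockout replicate 6. With the replicate block, G3bp2 had 0.14 at an adjusted exact p of 0.0625. The heated counts and the count for the difference of genotype effects stayed within 1.5 times of their values under every alternative run. No exact difference turned in sign. The median of all genes did after either other scaling, as did the list medians of stress granule (-0.02) and ribosomal protein genes (-0.00656) after median-of-ratios scaling and that of piRNA genes (-0.0235) there and (-0.0037) after quantile normalization. The medians of immediate early and epididymal genes turned under other alternatives. The cause of these shifts was not tested, and since TPM hold no depth, limits from depth are unknown.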

Other observations

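Several X-linked housekeeping genes have a second gene, autosomal or on the Y, with testis expression. In 12 such pairs, which were chosen after the data were seen, 9 X-linked members rose and 0 of the 12 partners were called, with median log2 differences of 0.30 and 0.01, where 14.3% of all X genes and 6.19% of all genes rose. Of the X-linked calls, Eif2s3x was lost in 8 and Rpl39 in 5 of 12 single omissions, while Rpl10, Rps4x and Ddx3x were kept in all. Kdm5c was called at an adjusted p of 0.0496. Among the partners, the Y-linked Ddx3y was 1.23-fold higher (0.25, adjusted p = 0.0575) and not called. Slc25a5, an adenine nucleotide carrier, rose from 49.6 ± 3.28 to 65.5 ± 4.99 TPM without overlap (adjusted p = 0.00461), and its partner Slc25a31 had 36.7 ± 2.94 and 38.7 ± 2.04 TPM. Pgk1, a glycolytic kinase, rose from 17.3 ± 1.37 to 19.9 ± 0.471 TPM, and its partner Pgk2 had 1106 ± 66.2 and 1032 ± 64.6 TPM, which did not pass. Rpl10 rose 1.30-fold, and Rpl10l had 234 ± 11.1 and 239 ± 14.6 TPM. The difference between partners was not tested.

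The genes that rose and those that fell also differed in kind. Protein-coding genes made up 92.9% of the rises and 56.2% of the falls, against 74.6% of all genes tested, and antisense and lincRNA genes 3.07%, 29.7% and 11.9%. Median transcript length was 2724 bases for rises, 1846.5 for falls and 2526 for all, and median GC content was 50.3%, 49.0% and 48.9%. Antisense reads can be told from those of the opposite gene only where strand was used in counting.

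Of the 48 genes higher in the knockout in both conditions, chosen after their values were seen, Rxrg, a retinoid receptor, rose from 1.35 to 1.89 TPM without heat and from 0.468 to 2.28 TPM after heat. Its unheated call was lost under both other scalings and in 7 of 12 single omissions. Crabp1, which binds retinoic acid, rose 1.39-fold and 1.32-fold, and the 2 genotype effects were not called different.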
